A study of Mus musculus with 6 samples.

Results

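Glucose is broken down to pyruvate and lactate, and rebuilt from them, by a set of enzymes, carriers and kinases whose RNA levels are described here in MIN6 cells, a mouse insulinoma line that makes insulin and stands in for beta cells in culture. The set lists 36 genes by symbol. A gene was measured where a probe set of the array (a group of short probes for one transcript) carried its symbol alone, and its brightest probe set by mean over the 6 arrays stood for it. This gave 32 tested genes of 18193 genes measured in all. For Gpi1, Pfkfb1 and Eno1 the annotation used here names no such probe set, and Gapdh stands alone only on 3 control probe sets of the array maker, which were kept out of the tests. MIN6 cells, grown in low-glucose medium with serum, were given either an siRNA to Hlxb9 or a negative control siRNA. Hlxb9 is an older name of Mnx1, which encodes a homeobox transcription factor. Both groups went through nucleofection and a lipid reagent, and RNA was taken 72 hours later. There were 3 arrays a group, numbered 1 to 3 in their titles. The labels also call the samples sorted cells without naming a gate, and state that arrays were made only where Hlxb9 protein was reduced by more than 75% on a western blot. The knockdown is by siRNA in a tumour line, several independent transfections are mentioned, and the labels do not say whether arrays of one title number share a day or a culture, so p-values measure the spread between these samples.

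In glycolysis, carriers bring glucose into the cell, hexokinases trap it, phosphofructokinase commits it, and the lower enzymes turn it into pyruvate. Lactate dehydrogenase makes lactate from pyruvate, monocarboxylate carriers take it across the membrane, and pyruvate dehydrogenase kinases keep pyruvate out of the mitochondrial oxidation route. Mature beta cells are known for sensing glucose through the carrier Glut2 (Slc2a2) and glucokinase and for holding lactate dehydrogenase A and monocarboxylate carriers low. Many glycolytic genes are known targets of hypoxia-inducible factor, which binds a short motif in their promoters.

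All values are log2 signal after RMA normalization, a difference of 1 being a doubling, and values in a sentence are given for arrays 1, 2 and 3 in that order. Array medians lay between 5.08 and 5.20. Control array 3 stood apart: its correlation with every other array was at most 0.991, and of the array maker's Gapdh control sets the one at the 3' end was brighter than that at the 5' end by 2.13 there, against 0.65 to 0.78 on the other 5 arrays, a measure of RNA or labelling quality. Differences of a gene's brightest probe set of 0.2 or more that it moves by over 1.5 times are therefore given without it as well. Mnx1 itself read 7.82, 7.50 and 7.77 on the control arrays and 7.53, 7.41 and 7.28 on the Hlxb9 siRNA arrays, a difference of -0.29 ± 0.13 (SE), with overlapping groups (limma adjusted p = 0.659, exact two-sided permutation p = 0.2, the smallest possible being 0.1). All 9 measured beta cell markers of 12 listed lay above the median probe set, 5.16. Of the other marker lists, 1 of 7 skeletal muscle, 2 of 5 hepatocyte, 1 of 5 fibroblast, 1 of 5 macrophage, 0 of 4 endothelial, 1 of 4 exocrine pancreas and 1 of 3 duct genes did so. Of the 32 glucose and lactate genes, 29 lay above it, the exceptions being Hk2, Pck1 and Pdk4, whose probe sets are dim.

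The first comparison asks how these genes differed when Hlxb9 was knocked down. Most stood slightly higher after Hlxb9 siRNA: 25 of 32 were higher and 7 lower, with a median difference of 0.12 against 0.0023 over all genes, of which 50.6% were higher. When each array was centred on its median, 24 of 32 members and 38.4% of all genes were higher. No member passed the threshold of an adjusted p of 0.05 in limma, and neither did any of the 45037 probe sets (0% called), the smallest adjusted p of a member being 0.645. At an unadjusted p under 0.05 there were 3 members higher (Fbp2, Slc2a3 and Aldoc), where 4.21% of all genes were, and 1 lower (Hk3), where 3.74% were (7.95% of genes and 7.62% of probe sets either way). With limma's array weights, Fbp2, Slc2a3 and Hk3 passed (adjusted p = 0.0326, 0.0431 and 0.0496), where 2.51% of all probe sets did. The weights were 0.63, 4.46 and 0.20 in controls and 0.76, 2.91 and 0.79 after Hlxb9 siRNA, so array 2 of each group counted most. Leaving out any single array, control array 3 included, called 0 members and 0 probe sets between groups. Fbp2, Slc2a3 and Aldoc had every Hlxb9 siRNA array above every control array, 9.38% of the members against 9.55% of all genes, so that count is near the background. No member had its groups apart downward (7.75% of all genes). Without control array 3, 23 of 32 members were higher, with a median of 0.11, beside 10319 of 18193 genes and a median of 0.027. The members' median was 0.23 without control array 2, 0.21 without Hlxb9 siRNA array 3 and 0.064 without Hlxb9 siRNA array 2. Of the members, 29 lay above the median probe set, against 11345 of 18193 genes. The comparisons with all genes were not matched for brightness. In the mean over members, centred gene by gene, the arrays stood at -0.13, 0.03 and -0.11 in the controls and at 0.11, 0.18 and -0.08 after Hlxb9 siRNA, so the groups overlapped.

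**Figure D1:**
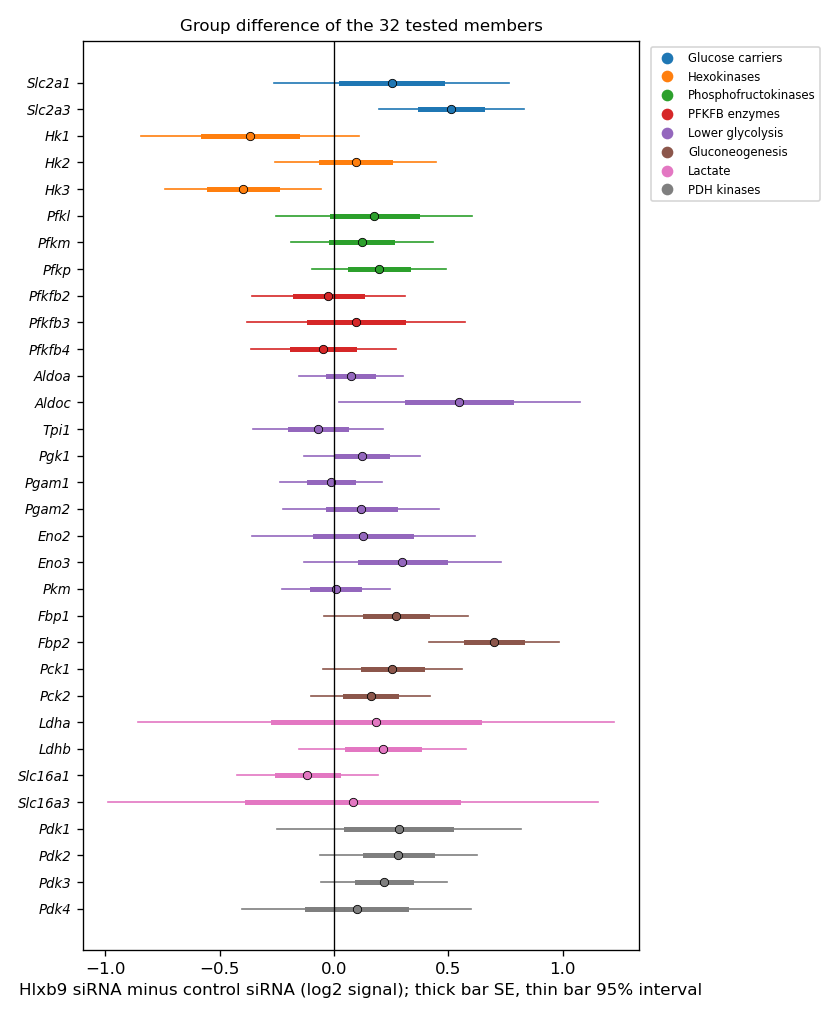
Group difference (Hlxb9 siRNA minus control siRNA, log2 signal, n = 3 arrays a group) of the 32 tested genes, ordered and coloured by role; points are differences, thick bars limma's SE and thin bars its 95% interval for the single gene. Most points lie right of 0, Fbp2 (0.70) lies farthest right, and Hk3 (-0.40) and Hk1 (-0.37) lie farthest left.

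Among the glucose carriers, Slc2a3 (Glut3, the high-affinity carrier of neurons) was the clearer of the pair. Its probe set 1455898_x_at read 7.41, 7.37 and 6.97 in controls and 7.76, 7.78 and 7.76 after Hlxb9 siRNA. The Hlxb9 siRNA arrays lay close together above all controls, and the lowest control was array 3. The difference was 0.51 ± 0.14 (1.43-fold higher, unadjusted p = 0.0058, limma adjusted p = 0.645), and 0.37 without control array 3. A second probe set gave 0.69 and also had its groups apart, while 2 dim ones gave -0.15 and 0.03. Slc2a1 (Glut1, the widely expressed basal carrier) had means of 11.26 ± 0.37 and 11.51 ± 0.31 (SD, n = 3 each) with overlapping groups, a difference of 0.25 ± 0.22. It was 0.057 without control array 3. Slc2a1 was higher in all 3 same-numbered pairs, as 9 of 32 members and 19% of all genes were.

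Hk1 and Hk3 had lower means after Hlxb9 siRNA, unlike most members. Hk3, a hexokinase best known from blood cells, read 6.08, 6.32 and 6.48 in controls and 5.89, 5.71 and 6.09 after Hlxb9 siRNA, so that only control array 1 and Hlxb9 siRNA array 3 overlapped. Its difference was -0.40 ± 0.15 (1.32-fold lower, unadjusted p = 0.028, limma adjusted p = 0.648), and its other, dimmer probe set gave 0.15. Hk1, the general hexokinase of most tissues, read 8.99, 9.33 and 9.81 in controls and 8.91, 9.20 and 8.92 after Hlxb9 siRNA. The high value of control array 3 sets much of its difference of -0.37 ± 0.21, which was -0.15 without that array. A dimmer Hk1 probe set gave 0.22. Hk2, the insulin-regulated form of muscle and fat, was dim at 4.27 ± 0.11 and 4.37 ± 0.27, a difference of 0.09 ± 0.15.

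The phosphofructokinase subunits were all slightly higher, none past the threshold. Pfkp, the platelet-type subunit, read 10.48, 10.79 and 10.84 in controls and 10.91, 10.97 and 10.82 after Hlxb9 siRNA. Its control array 1 was the lowest of all 6 and the groups overlapped, with a difference of 0.20 ± 0.13. Other Pfkp probe sets gave 0.67 and -0.17. Pfkl (liver type) differed by 0.18 ± 0.18 and Pfkm (muscle type) by 0.12 ± 0.13. The Pfkfb enzymes set the level of a fructose bisphosphate that activates phosphofructokinase. Their differences were all within 1 SE of 0: Pfkfb3 differed by 0.10 ± 0.21, Pfkfb2 by -0.02 ± 0.14 and Pfkfb4 by -0.05 ± 0.14.

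In the lower part of the pathway, Aldoc stood apart from the other enzymes in the size of its difference. Aldoc, the brain-type aldolase, read 8.06, 8.11 and 7.24 in controls and 8.45, 8.37 and 8.24 after Hlxb9 siRNA. The groups did not overlap, and control array 3 was the lowest by far. The difference of 0.55 ± 0.23 (1.46-fold higher, unadjusted p = 0.043, limma adjusted p = 0.653) was 0.27 without that array, and a dim second probe set gave -0.24. Eno3, the muscle enolase, read 8.39, 8.46 and 8.85 in controls and 9.19, 8.81 and 8.60 after Hlxb9 siRNA, with overlap and a difference of 0.30 ± 0.19. Without control array 3 the Eno3 difference was 0.44, larger than that of Aldoc. Eno2, the neuronal and neuroendocrine enolase, differed by 0.13 ± 0.21, and by -0.12 without control array 3. The differences of the main enzymes of this stretch were small: Pgk1 (phosphoglycerate kinase) 0.12 ± 0.11, Pgam2 (muscle phosphoglycerate mutase) 0.12 ± 0.15, Aldoa (the general aldolase) 0.07 ± 0.10, Pkm (pyruvate kinase) 0.0066 ± 0.10, Pgam1 -0.02 ± 0.10 and Tpi1 (triose phosphate isomerase) -0.07 ± 0.12. Of these, Aldoa kept its sign under every alternative tried, while Pgk1, Pgam2, Pkm, Pgam1 and Tpi1 each turned under at least 1.

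Gluconeogenesis held the largest difference of the set. Fbp2, the muscle form of fructose bisphosphatase, which undoes the phosphofructokinase step, read 8.80, 8.99 and 8.62 in controls and 9.51, 9.56 and 9.44 after Hlxb9 siRNA on probe set 1449088_at, its only one. Every Hlxb9 siRNA array lay above every control. The means were 8.80 ± 0.19 and 9.50 ± 0.06 (SD, n = 3 each), a difference of 0.70 ± 0.12 (1.62-fold higher, unadjusted p = 5.1e-04, limma adjusted p = 0.645), and 0.61 without control array 3. Skeletal muscle markers, given because Fbp2 is a muscle gene, averaged 4.004 to 4.14 on the control arrays and 3.96 to 4.02 after Hlxb9 siRNA, and 6 of the 7, Ckm (4.31 and 4.01) and Myog (3.44 and 3.18) among them, were below the median probe set. The exception, Acta1, stood at 6.18 and 6.41, higher after Hlxb9 siRNA by 0.23 ± 0.15, and by 0.08 without control array 3. Myh2 was also higher, by 0.16 ± 0.13. Their part in the Fbp2 difference was not tested. Fbp1, the liver and kidney form, lies next to Fbp2 with 0 protein-coding genes between them in the RefSeq table. It read 11.30, 11.58 and 11.16 in controls and 11.63, 11.73 and 11.51 after Hlxb9 siRNA. Its groups overlapped, with a difference of 0.27 ± 0.14 that was 0.18 without control array 3.

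The carboxykinases, which make phosphoenolpyruvate from oxaloacetate, differed little. Pck2, the mitochondrial form, read 11.72, 12.02 and 11.93 in controls and 11.99, 12.10 and 12.05 after Hlxb9 siRNA, a difference of 0.16 ± 0.11 with overlapping groups. Pck1, the cytosolic form, was dim, at 3.37, 3.42 and 3.57 in controls and 3.92, 3.69 and 3.52 after Hlxb9 siRNA. Its difference of 0.26 ± 0.13 was not shared by its other probe sets, at -0.04 and -0.46.

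**Figure D2:**
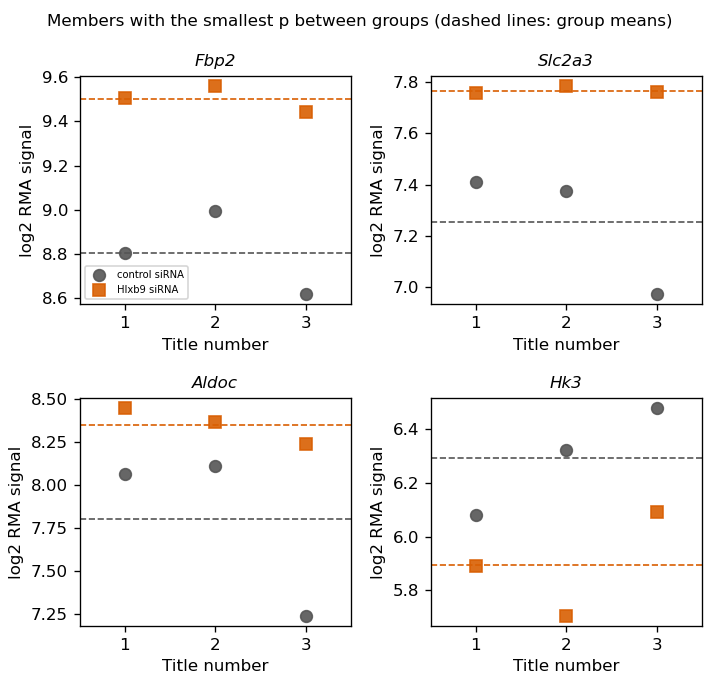
Log2 signal on each array, by title number, of the 4 members with the smallest unadjusted p between groups; circles are control siRNA, squares Hlxb9 siRNA, and dashed lines the means of 3 arrays. Fbp2, Slc2a3 and Aldoc have all squares above all circles, with control array 3 lowest in each, while Hk3 overlaps.

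Genes of lactate handling did not separate the groups. Ldha (lactate dehydrogenase A) had means of 10.67 ± 0.64 and 10.86 ± 0.84 and Slc16a3 (Mct4, known as the lactate exporter of glycolytic cells) 6.62 ± 0.61 and 6.70 ± 0.90 (SD, n = 3 each). These are the widest spreads within groups of any member, and the differences of 0.18 ± 0.45 and 0.08 ± 0.46 were far inside them. Both had the opposite sign without control array 3, at -0.15 and -0.14. Ldhb, the heart-type subunit, differed by 0.21 ± 0.16, and its 3 other probe sets gave 0.31 to 0.39. Slc16a1 (Mct1) differed by -0.12 ± 0.13.

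All 4 pyruvate dehydrogenase kinases had a higher mean after Hlxb9 siRNA, none past the threshold. Pdk2 read 7.31, 7.35 and 7.69 in controls and 7.89, 7.77 and 7.52 after Hlxb9 siRNA, a difference of 0.28 ± 0.15. Pdk3 read 8.62, 8.67 and 8.62 in controls and 9.02, 8.89 and 8.67 after Hlxb9 siRNA, a difference of 0.22 ± 0.12. In both genes arrays 1 and 2 differed between groups and array 3 of Hlxb9 siRNA lay among the controls. Pdk1 differed by 0.28 ± 0.23, and by 0.12 without control array 3. With the title number as a block, its SE was 0.11 (unadjusted p = 0.041, limma adjusted p = 0.527). Pdk4, the starvation-induced kinase, was dim and differed by 0.10 ± 0.22.

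Gapdh, the most used reference gene, could be read from the control probe sets as values only. The 3' set gave 13.72, 13.77 and 13.83 in controls and 13.75, 13.77 and 13.78 after Hlxb9 siRNA, so the groups overlapped. The 5' set gave 12.94, 13.12 and 11.70 in controls and 13.02, 13.08 and 13.07 after Hlxb9 siRNA, the low value being control array 3. A Gapdh difference read from the 5' end would thus be that of 1 array.

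The probe set chosen mattered for many members. Of the 17 members with further probe sets, Ldhb and Slc16a1 had all of them in the same direction as the brightest, and 9 had another that differed the opposite way by 0.1 or more. Pgk1 was the clearest case: the brightest set differed by 0.12, while 1439435_x_at read 11.09, 11.32 and 11.57 in controls and 10.54, 10.76 and 10.82 after Hlxb9 siRNA, all below the controls, a difference of -0.62 ± 0.15 (unadjusted p = 0.0034). Its other set, 1438640_x_at, gave -0.36, again with the groups apart. One dimmer Aldoa set, 1447734_x_at, read 8.39, 8.77 and 9.17 in controls and 8.26, 8.28 and 8.27 after Hlxb9 siRNA, a difference of -0.50 (-0.31 without control array 3) where the brightest gave 0.07. The suffix x marks probe sets whose probes can also match other transcripts, and 3 of the representative sets (Aldoa, Tpi1 and Slc2a3) carry it too. Which transcripts these sets measured was not tested.

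**Figure D3:**
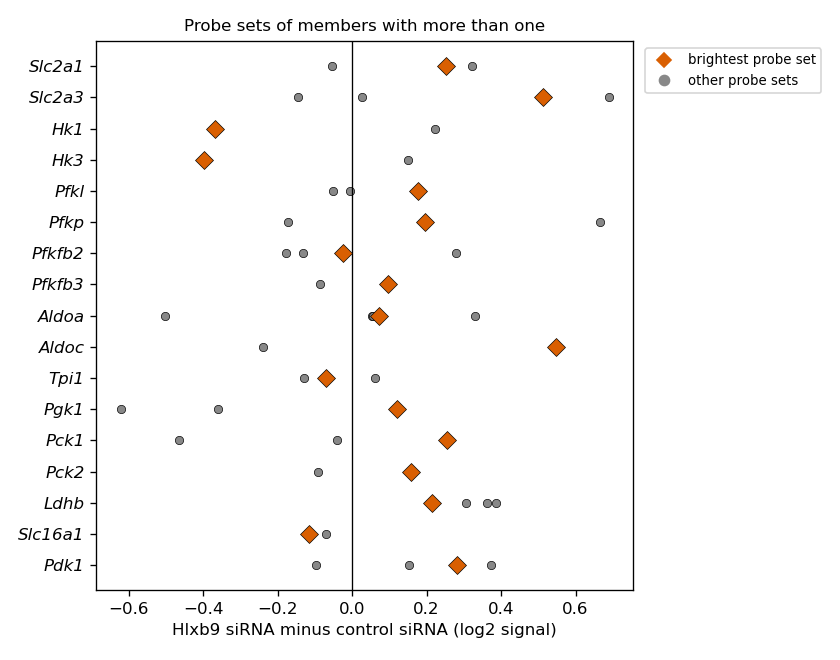
Group difference (Hlxb9 siRNA minus control siRNA, log2 signal) of every probe set of the 17 members that have more than one; diamonds are the brightest set of each gene and grey circles the others. Ldhb sets lie together right of 0, while Pgk1, Aldoa, Pck1 and Aldoc have sets on both sides of 0.

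Other genes of glucose, pyruvate and lactate handling were read from a separate list of 41, of which 37 were measured. Of these, 24 were higher and 13 lower after Hlxb9 siRNA, with a median difference of 0.10, and 0 passed limma's adjusted threshold. Gpd2, the mitochondrial glycerol phosphate dehydrogenase that hands electrons from glycolysis to the respiratory chain, read 11.73, 11.77 and 11.60 in controls and 12.09, 11.91 and 12.08 after Hlxb9 siRNA. Its groups were apart, with a difference of 0.33 ± 0.11 (unadjusted p = 0.016, limma adjusted p = 0.645), the only gene of the list at an unadjusted p under 0.05. The dimmer Gpd2 probe sets gave 0.18, -0.07 and 0.28. Pklr (liver-type pyruvate kinase) and Mpc1 (a subunit of the mitochondrial pyruvate carrier) had all Hlxb9 siRNA arrays above the controls, with differences of 0.23 ± 0.10 and 0.22 ± 0.11. The dimmer Pklr probe sets went the opposite way, at -0.15 and -0.10. G6pc2, the islet glucose phosphatase that opposes glucokinase, read 13.16, 12.98 and 13.16 in controls and 12.87, 12.87 and 12.89 after Hlxb9 siRNA, all below the controls, a difference of -0.23 ± 0.10. In all, 4 of these 37 genes lay apart above and 2 apart below, beside the 9.55% and 7.75% of all genes given above.

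The second comparison sets the title numbers against each other, each number holding 1 control and 1 Hlxb9 siRNA array. Here Ldha and Slc16a3 had the smallest p of all members, and both were highest on the number 2 arrays and lowest on the number 3 arrays in each group, by 2.69-fold and 2.74-fold. Pdk1 and Slc2a1 followed the same order at 1.64-fold and 1.60-fold. The other lactate genes did not follow it in both groups, with number 3 minus number 2 at 0.03 ± 0.20 for Ldhb and -0.18 ± 0.16 for Slc16a1. No member passed limma's F-test over numbers at an adjusted p of 0.05 (smallest 0.265 for Ldha), where 3 of the 45037 probe sets (0.00666%) did. These 4 genes had an unadjusted p under 0.05, 12.5% of the members against 6.71% of all genes and 7.95% of probe sets. Without control array 3 there were 6 (18.8%), against 9.16% of all genes. Over all probe sets, arrays of the same number deviated together from their group means (r = 0.155, 0.165 and 0.202 for numbers 1, 2 and 3, against at most 0.072 for arrays of different number).

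The order 2 over 1 over 3, noticed in Ldha, was then counted in all genes. It held in both groups for 7 of 32 members (21.9%), namely Ldha, Slc16a3, Pdk1, Slc2a1, Fbp1, Fbp2 and Pgk1, and for 2.49% of all genes. This was read from each gene's brightest probe set. The dimmer Pgk1 sets, 1439435_x_at and 1438640_x_at, did not hold it, with number 3 minus number 2 at 0.16 and 0.0019. Nor did the other Pdk1 sets or the Slc2a1 set 1434773_a_at hold it in both groups. Number 2 was above number 3 in both groups for 16 members against 23.7% of all genes, and above number 1 for 17 members against 26.1%. The median member stood lower by 0.09 on number 3 than on number 2, where the median gene stood higher by 0.03. Any same order in both groups was found for 9 members and 19.6% of all genes. These 7 were picked for their order, so the counts are a description of these arrays.

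Because these 7 genes followed 1 order, the 250 bases before their RefSeq start sites are shown (assembly GRCm38.p6, 5′ to 3′ on the gene's strand, the most upstream start where there are several). Capitals mark ACGTG or GCGTG on either strand, the core letters that hypoxia-inducible factor is known to bind. CACGTG reads as ACGTG on both strands and is counted on each.
Ldha, chr7:46845554-46845803, plus strand: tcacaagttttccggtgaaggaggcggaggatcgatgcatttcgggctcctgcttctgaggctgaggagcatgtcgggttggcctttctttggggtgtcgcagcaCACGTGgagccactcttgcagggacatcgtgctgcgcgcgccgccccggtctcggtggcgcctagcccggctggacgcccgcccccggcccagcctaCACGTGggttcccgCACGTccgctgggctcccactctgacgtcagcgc
Slc16a3, chr11:120948817-120949066, plus strand: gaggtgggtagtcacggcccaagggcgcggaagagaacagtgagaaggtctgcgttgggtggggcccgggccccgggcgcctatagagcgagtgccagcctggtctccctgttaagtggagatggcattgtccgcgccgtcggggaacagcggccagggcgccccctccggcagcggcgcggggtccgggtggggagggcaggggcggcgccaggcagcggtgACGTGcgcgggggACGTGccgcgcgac
Pdk1, chr2:71872974-71873223, plus strand: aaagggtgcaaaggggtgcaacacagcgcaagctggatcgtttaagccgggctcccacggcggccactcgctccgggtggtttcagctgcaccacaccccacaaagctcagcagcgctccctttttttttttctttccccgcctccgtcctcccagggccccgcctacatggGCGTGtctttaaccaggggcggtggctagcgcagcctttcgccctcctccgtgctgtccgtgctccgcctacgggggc
Slc2a1, chr4:119108495-119108744, plus strand: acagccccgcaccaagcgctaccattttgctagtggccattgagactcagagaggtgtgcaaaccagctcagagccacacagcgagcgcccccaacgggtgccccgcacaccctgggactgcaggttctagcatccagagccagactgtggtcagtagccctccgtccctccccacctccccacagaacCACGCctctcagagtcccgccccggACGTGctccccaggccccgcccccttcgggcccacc
Fbp1, chr13:62888283-62888532, minus strand: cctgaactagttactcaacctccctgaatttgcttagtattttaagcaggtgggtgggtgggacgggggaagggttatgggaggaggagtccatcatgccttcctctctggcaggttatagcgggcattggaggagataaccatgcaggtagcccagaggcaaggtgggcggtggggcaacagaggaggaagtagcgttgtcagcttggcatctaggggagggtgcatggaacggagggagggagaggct
Fbp2, chr13:62858401-62858650, minus strand: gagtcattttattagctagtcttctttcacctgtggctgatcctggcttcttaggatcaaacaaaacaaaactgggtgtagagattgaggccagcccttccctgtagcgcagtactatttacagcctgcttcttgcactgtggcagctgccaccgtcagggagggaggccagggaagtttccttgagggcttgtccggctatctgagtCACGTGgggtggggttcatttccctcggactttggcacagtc
Pgk1, chrX:106186850-106187099, plus strand: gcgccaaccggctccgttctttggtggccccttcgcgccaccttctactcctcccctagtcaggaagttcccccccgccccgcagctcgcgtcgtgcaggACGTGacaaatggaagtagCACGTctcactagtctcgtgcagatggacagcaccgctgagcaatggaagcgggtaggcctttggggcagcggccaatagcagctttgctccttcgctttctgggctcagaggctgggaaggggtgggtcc
In these windows ACGTG was found 5 times for Ldha, 2 times each for Slc16a3, Fbp2 and Pgk1, and 1 time for Slc2a1, while Pdk1 and Slc2a1 hold 1 GCGTG each. No match stood in the Fbp1 window. Of the 31 members with a window, 16 hold ACGTG (51.6%) in any window of the gene, against 18.5% of all gene symbols and 16.6% of all windows. GCGTG was found for 18 of the 31 (58.1%), against 30.9% of symbols and 28.2% of windows. Of the 7 genes shown, 5 hold ACGTG (71.4%) and 3 hold GCGTG (42.9%) in any window. The windows shown hold from 52.4% (Fbp2) to 73.6% (Slc16a3) G or C, and both strings contain CG. The shares were not matched for base content, number of windows per gene or expression. A match is a string of letters, and binding was not measured.

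**Figure D4:**
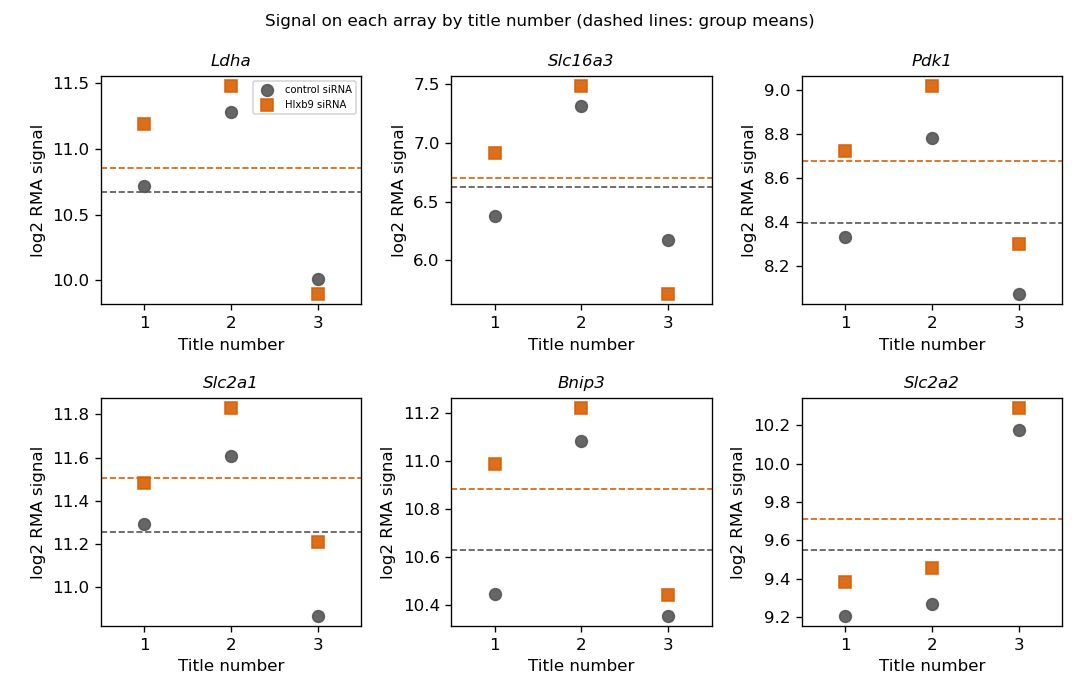
Log2 signal on each array by title number for Ldha, Slc16a3, Pdk1 and Slc2a1, for Bnip3 (a gene known to respond to low oxygen) and for Slc2a2 (Glut2); circles are control siRNA, squares Hlxb9 siRNA and dashed lines group means. The first 5 genes are highest on number 2 and lowest on number 3 in both groups, while Slc2a2 is highest on number 3.

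Ldha, on probe set 1419737_a_at, read 10.72, 11.28 and 10.01 in controls and 11.19, 11.48 and 9.90 after Hlxb9 siRNA. The 2 arrays of number 3 lay below the other 4 and the 2 of number 2 above them. Number 3 minus number 2 was -1.43 ± 0.17 (unadjusted p = 3.5e-04 and limma adjusted p = 0.265 over the 3 numbers). By that p Ldha stood 44th of the 18193 genes. Slc16a3, on probe set 1449005_at, read 6.38, 7.31 and 6.17 in controls and 6.92, 7.48 and 5.71 after Hlxb9 siRNA. Number 3 was again lowest in both groups and number 2 highest, with a difference of -1.45 ± 0.24 (unadjusted p = 0.0021, limma adjusted p = 0.370).

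Both passed the threshold when 1 array of number 3 was left out, which leaves a single array for number 3, assumed to vary like those of numbers 1 and 2, and 1 residual degree of freedom. Leaving out an array of number 1 or 2 instead called 0 members and 0 probe sets. Without control array 3 the number 3 minus number 2 differences were -1.65 for Ldha and -1.86 for Slc16a3 (limma adjusted p = 0.0491 and 0.0443), where 38 probe sets (0.0844%) were called. Without Hlxb9 siRNA array 3 they were -1.20 and -1.05 (limma adjusted p = 0.0162 and 0.0182), where 3459 probe sets (7.68%) were called and Hk1, Aldoc and Eno2 passed as well. In that fit control array 3 alone stands for number 3. The large 3' to 5' difference of that array goes with those calls, and its part in them was not tested.

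Pdk1, the hypoxia-responsive member of its family, read 8.33, 8.78 and 8.07 in controls and 8.72, 9.01 and 8.30 after Hlxb9 siRNA. Number 3 minus number 2 was -0.71 ± 0.14 (unadjusted p = 0.0048, limma adjusted p = 0.426). Its 3 other probe sets also had number 3 below number 2, at -0.62, -0.57 and -0.39. Slc2a1 read 11.29, 11.61 and 10.87 in controls and 11.48, 11.83 and 11.21 after Hlxb9 siRNA. Number 3 minus number 2 was -0.68 ± 0.13 (unadjusted p = 0.0057, limma adjusted p = 0.435), and the other probe sets gave -0.35 and -0.93. In both genes every probe set thus had a lower mean on number 3 than on number 2.

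**Figure D5:**
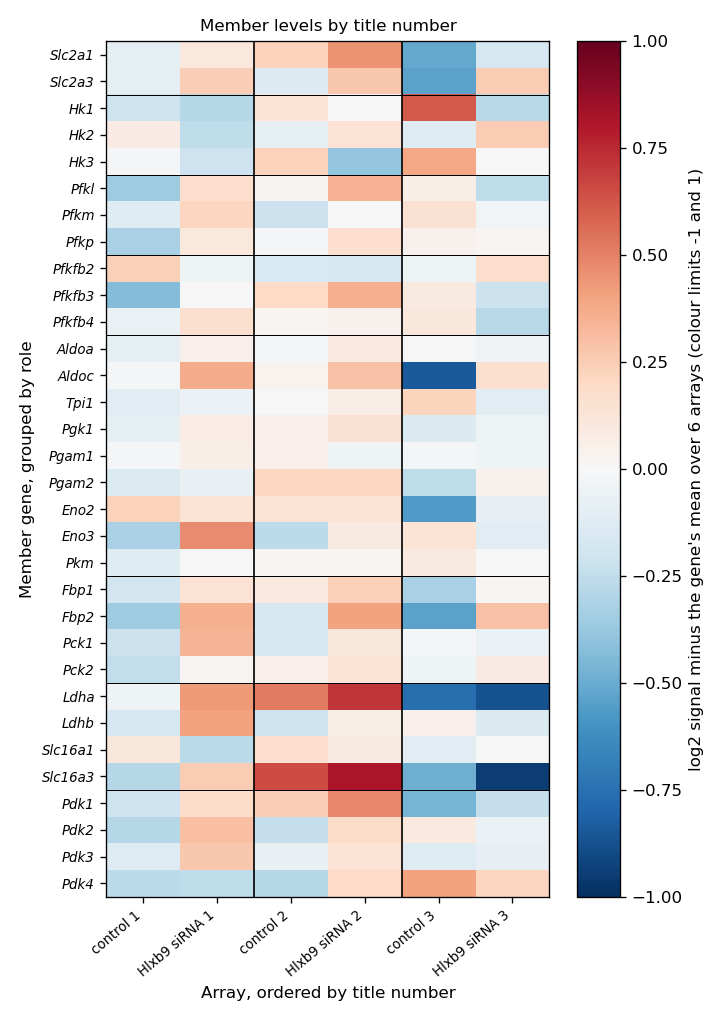
Log2 signal minus each gene's mean over 6 arrays, for the 32 tested members grouped by role (rows) and the arrays ordered by title number (columns, control and Hlxb9 siRNA side by side); red is above and blue below the gene's mean. Ldha and Slc16a3 are red on both number 2 arrays and blue on both number 3 arrays, and for Aldoc and Eno2 the strong blue is on control array 3.

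The other members with the smallest p between numbers were less regular, and none had an unadjusted p under 0.05. Eno2 read 12.47, 12.38 and 11.67 in controls and 12.38, 12.37 and 12.16 after Hlxb9 siRNA, lowest on number 3, and its number 3 minus number 2 difference of -0.46 ± 0.18 was -0.20 without control array 3. Aldoc moved likewise, from -0.50 ± 0.20 to -0.16 without that array. Pdk4 read 3.95, 3.92 and 4.61 in controls and 3.95, 4.40 and 4.43 after Hlxb9 siRNA, highest on number 3 in each group. Pfkfb3, a hypoxia-induced activator of glycolysis, read 6.74, 7.38 and 7.26 in controls and 7.18, 7.53 and 6.97 after Hlxb9 siRNA, highest on number 2 in each. Its difference of -0.34 ± 0.20 was -0.64 without control array 3 and -0.046 without Hlxb9 siRNA array 3. Pgam2 read 5.10, 5.44 and 4.98 in controls and 5.16, 5.44 and 5.28 after Hlxb9 siRNA, also highest on number 2 in each.

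Fbp1, Hk3 and Hk1, whose array values are given above, complete the 12. Fbp1 followed the order of Ldha with a number 3 minus number 2 difference of -0.32 ± 0.14. Hk3 was highest on number 3 in both groups, by 0.27 ± 0.16. Hk1 differed by 0.10 ± 0.22, highest on number 3 in controls and on number 2 after Hlxb9 siRNA. The main lower enzymes were flatter, with number 3 minus number 2 differences of -0.20 for Pgk1, -0.06 for Aldoa, -0.03 for Pgam1, 0.03 for Tpi1 and 0.03 for Pkm, each with an SE of at least 0.13.

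A list of 20 genes of the low-oxygen response was set beside the members, since several members belong to that response. The list includes Hif1a, Epas1 and Arnt, which encode subunits of hypoxia-inducible factors. Of the 20 genes, 19 were measured. Between groups, 13 were higher and 6 lower after Hlxb9 siRNA with a median of 0.07, and none had an unadjusted p under 0.05. With the title number as a block, 2 higher and 1 lower gene did (9.19% of all genes in either direction), Adm being lower in each of the 3 pairs (unadjusted p = 0.0018, limma adjusted p = 0.482), beside Egln3 and Ankrd37. Without the block, the smallest p values belonged to Adm (adrenomedullin, -0.56 ± 0.27), Egln3 and Egln1 (oxygen-sensing prolyl hydroxylases, 0.37 ± 0.18 and 0.23 ± 0.13, the latter 0.11 without control array 3) and Vegfa (-0.19 ± 0.11), all with overlapping groups. Between numbers, 6 of 19 had an unadjusted p under 0.05, beside 6.71% of all genes, and 8 without control array 3. The median number 3 minus number 2 difference was -0.34, and 4 of the 19 followed the order 2 over 1 over 3 in both groups.

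Adm read 8.26, 8.64 and 7.86 in controls and 7.74, 8.12 and 7.20 after Hlxb9 siRNA, number 3 minus number 2 being -0.85 ± 0.13. Bnip3, a mitophagy receptor, read 10.45, 11.08 and 10.35 in controls and 10.99, 11.22 and 10.44 after Hlxb9 siRNA, at -0.76 ± 0.16. Both followed the order of Ldha and Slc16a3, as did Ankrd37 at -0.67 ± 0.14. Mxi1, a Myc antagonist, was also lowest on number 3 in both groups, at -0.57 ± 0.19, and at -0.27 without control array 3. None of the 19 passed limma's adjusted threshold over numbers (smallest adjusted p = 0.357). Oxygen, cell density and medium are not given per sample in the labels, and their part in this pattern was not tested.

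Glucose entry genes did not all share one order. Slc2a2, the beta cell carrier Glut2, read 9.21, 9.27 and 10.17 in controls and 9.38, 9.46 and 10.29 after Hlxb9 siRNA, highest on number 3 where Slc2a1 was lowest. Number 3 minus number 2 was 0.87 ± 0.13 (unadjusted p = 5e-04, limma adjusted p = 0.295), the only gene of the list of 37 at an unadjusted p under 0.05 between numbers. The next by p were Hkdc1 (0.08 ± 0.15) and Ldhc (0.33 ± 0.13), both dim, and Pdp1, the phosphatase that opposes the Pdk kinases (-0.24 ± 0.14). The mean of the 9 beta cell markers, Slc2a2 among them, was 11.94 to 11.95 on the arrays of numbers 1 and 2 and 12.13 and 12.06 on those of number 3. Slc2a2 moved the most of them. Number 3 minus number 2 ran from -0.14 for Nkx6-1 to 0.17 for Neurod1 in the other markers. Outside these lists, the 3 probe sets that passed limma's F-test over numbers, of Ppy, Cdh13 and Dlk1, stood at -2.28, -1.85 and -1.57. These shifts are larger than those of Ldha and Slc16a3. The part of cell state or cell mixture in the differences between numbers was not tested. In bulk RNA fewer cells of a kind and less RNA per cell cannot be told apart.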

How the data were processed

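The authors deposited log2 values of 45101 probe sets on 6 Affymetrix mouse arrays, made from 6 ug of RNA per the labels. The submitters' processing notes name RMA and Partek. Settings, versions and the test behind them were not given in the sources used here. From the table, 64 control probe sets were set aside, leaving 45037, of which 34945 carry 1 symbol, 932 several and 9160 are unnamed here. limma 3.58.1 (R 4.3.3, statmod 1.5.0) was fitted to all of them, with group alone for the group comparison and with group and title number for the moderated F-test over numbers. P-values are two-sided and Benjamini-Hochberg adjusted over 45037 probe sets at 0.05. Arrays have no read depth, and their number limits the precision. Both fits were tested on simulated data. The members and lists were chosen with earlier results of these data known. Array values are given for the 12 members with the smallest p in each comparison, and up to 4 genes of each other list are named by the same p. Same-numbered arrays correlated weakly in their deviations (r = 0.155, 0.165 and 0.202). The labels state no pairing, and correlations this weak do not establish one, so the replicate block was an alternative. Alternatives were scaling, offset, a filter on dim probe sets, prior, array weights, probe set choice, replicate block, threshold and leaving out each array.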

Additional observations from a re-analysis of the deposited data

How the results depend on the processing

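Adding the title number as a replicate block left 0 probe sets and 0 members called between groups, Fbp2 having an adjusted p of 0.478, and changed no call. At an unadjusted limma p under 0.05, that fit had 4 members higher (Fbp2, Slc2a3, Aldoc and Pdk1) and 1 lower (Hk3). Of all genes, 9.19% were under it in either direction. Array weights called 1132 probe sets (2.51%) and 3 members, Fbp2, Slc2a3 and Hk3, with adjusted p of 0.0326, 0.0431 and 0.0496. An unadjusted p of 0.05 called 3430 probe sets and 4 members between groups, and 3579 and 4 between numbers, or 6 members without control replicate 3, a setting chosen after seeing the data. The median over members ranged from 0.064 to 0.227 when single arrays were left out. Probe sets called between numbers fell to 0 without dim probe sets or with an offset of 32, and ranged from 0 to 3459 with single arrays left out (38 without control replicate 3), members from 0 to 5; the cause was not tested.

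Some signs turned, mostly of differences near 0, but also those of Aldoc (0.55), Pck1 (0.26) and Pklr (0.23) with the probe sets read. Under array weights the group differences were -0.028 for Eno2, -0.019 for Ldha, -0.019 for Pgam2, -0.087 for Slc16a3, 0.017 for Pfkfb2 and 0.023 for Tpi1, and with centred arrays -0.046 for Pkm. Averaging all probe sets of a gene gave -0.083 for Pck1, -0.287 for Pgk1 and -0.0077 for Pklr, and for number 3 minus number 2 -0.12 for Hk1 and -0.0062 for Hkdc1. With plain _at probe sets (25 members) they were -0.24 for Aldoc, -0.041 for Pck1, -0.091 for Pck2 and -0.050 for Pfkl, and Aldoc was 0.099 between numbers. With single arrays left out, the group difference ran from -0.12 to 0.28 for Eno2, -0.0084 to 0.25 for Hk2, -0.15 to 0.66 for Ldha, -0.021 to 0.32 for Pdk4, -0.12 to 0.090 for Pfkfb2, -0.096 to 0.23 for Pfkfb3, -0.14 to 0.078 for Pfkfb4, -0.050 to 0.0055 for Pgam1, -0.051 to 0.055 for Pkm, -0.31 to 0.58 for Slc16a3 and -0.14 to 0.024 for Tpi1. Number 3 minus number 2 ran from -0.29 to 0.49 for Hk1 and from -0.0045 to 0.17 for Hkdc1.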

Other observations

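Gapdh was also on probe sets that the annotation shares with other symbols, which the report does not use. The brightest of them, 1418625_s_at, had a mean of 13.88 ± 0.02 (SD, n = 3) over the controls and of 13.93 ± 0.03 (SD, n = 3) over the Hlxb9 siRNA arrays. Another, 1447999_x_at, stood at 7.98 and 7.24, lower after Hlxb9 siRNA by a difference of -0.74. The dimmer x probe sets of Pgk1 and the Aldoa set 1447734_x_at were also lower. The other dimmer Aldoa x sets were higher, by 0.05, 0.06 and 0.33. Of the 32 members, 10 were lowest on control array 1 and 9 on control array 3. Of all genes, 22.1% and 22.2% were. On Hlxb9 siRNA array 2, 13 members were highest, and 9 on Hlxb9 siRNA array 1, where 10.2% and 20.0% of all genes were.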
